A study of Mus musculus with 4 samples.

Results

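Most genes with DEAD or DEAH box names encode RNA helicases, and 52 of the 28649 gene rows deposited for this microRNA pulldown carry such names. Members were taken by name, as rows called Ddx or Dhx followed by a number and at most 1 letter, which gave 37 DEAD box rows (Ddx) and 15 DEAH box rows (Dhx). A further 2 rows with such names were not analysed here. The name alone decides which rows belong, but the family itself was chosen by its log2 folds between the miR-206 and control libraries, which were already known. The folds below are therefore a description of these libraries, and the counts over the members support nothing beyond themselves.

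Sca1+ cells sorted from skeletal muscle of C57Bl/6 mice were used, labelled as FAPs (fibro-adipogenic progenitors), stromal cells found between muscle fibres. The mice are given as wild type, with no age. The tested libraries hold RNA captured on a biotin-tagged miR-206 mimic, and the others RNA captured on a biotin-tagged control mimic, with 2 replicates of each. All cells were grown to about 80% confluency, transfected for 24 hours and then held in basal medium (10% horse serum) for 48 hours before capture. The labels leave out the sequence of either mimic, and nothing says whether replicates came from separate mice or cultures, so a p-value measures only the spread between these libraries, which may be technical. All 4 samples are captured RNA, without a matching sample of total RNA, so a lower capture and a lower level in the cells cannot be told apart, nor can fewer cells of a type and less RNA per cell.

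RNA helicases of this superfamily use ATP to pull short RNA duplexes apart or to strip proteins from RNA, and they are named after a run of amino acids in the ATP-binding core. DEAD box proteins mostly open short duplexes locally. DEAH box proteins move along a strand and drive the large rearrangements of the spliceosome and of ribosome precursors, switched on by partners with a G-patch domain. Roles named below are those known for the human or yeast proteins. A microRNA finds its targets mainly through its seed, bases 2 to 8, and miR-206 is made in skeletal muscle.

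The mature strand of miR-206 in RefSeq (GRCm38.p6, chr1:20679055-20679076, plus strand) is shown because the capture rests on its pairing, with the seed in capitals.
mmu-miR-206-3p: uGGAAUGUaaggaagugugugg
The letters that pair fully with this seed are ACAUUCC, read 5′ to 3′ in a target. Transcript sequences were not used here, so none of the members was searched for them.

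The libraries held 14566568 and 15426666 estimated counts with miR-206 and 8883197 and 14261566 with the control. The sorted cells carried FAP markers, with summed TPM (a level scaled to transcript length and library) of 4260 and 4514 in the miR-206 libraries and 2870 and 3799 in the control libraries over 8 genes, of which Cd34, Osr1 and Thy1 passed the test as enriched. Osr1 alone held 1345 and 1298 TPM with miR-206 and 82.2 and 103 with the control. Pdgfra had 70.4 and 67.3 TPM with miR-206 and 110 and 147 with the control. In the test, which scales counts otherwise (below), the log2 fold of Pdgfra was 0.03 and did not pass. The log2 folds of Ly6a (0.73), Dcn (-0.48), Col1a1 (-0.72) and Col3a1 (-0.23) did not pass either. The summed TPM of 5 pericyte markers was 108 and 69.4 with miR-206 and 8.78 and 9.71 with the control, and 2 of the 5, Rgs5 and Abcc9, passed the test as enriched. The log2 folds of Cspg4 (-0.04), Mcam (0.23) and Kcnj8 (0.74) did not pass. Endothelial markers summed to 37.9 and 33.4 TPM with miR-206 and 79.0 and 30.3 with the control (6 genes, Cdh5 and Erg enriched), myogenic markers to 39.5 and 25.4 against 28.6 and 29.96 (5 genes, Myod1 and Myog enriched of 4 tested), and immune markers to 4.74 and 6.27 against 19.8 and 9.14 (5 genes, 0 of 4 tested called at an adjusted p or at an unadjusted one under 0.05). Over all tested genes 15.3% were enriched and 6.19% depleted. None of these lists had a gene at 0 in every library. The part of such cells in the helicase values was not tested.

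Helicase transcripts made up a smaller share of the miR-206 libraries. They held 0.0882% and 0.0951% of all counts there, against 0.390% and 0.349% in the control libraries. In TPM the 52 rows summed to 373 and 339 in the miR-206 libraries and to 1458 and 1475 in the control libraries. Both miR-206 sums lie far below both control sums. Much of the gap lay in a pair of genes: Ddx39 and Dhx15 together aside, the other 50 rows summed to 344 and 308 TPM with miR-206 and to 810 and 725 with the control. These sums move with whatever else fills a library. On the log2(TPM + 1) scale the median gene of all 13653 tested on it had a log2 fold of -0.82, so lower values on that scale are not particular to the helicases.

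**Figure D1:**
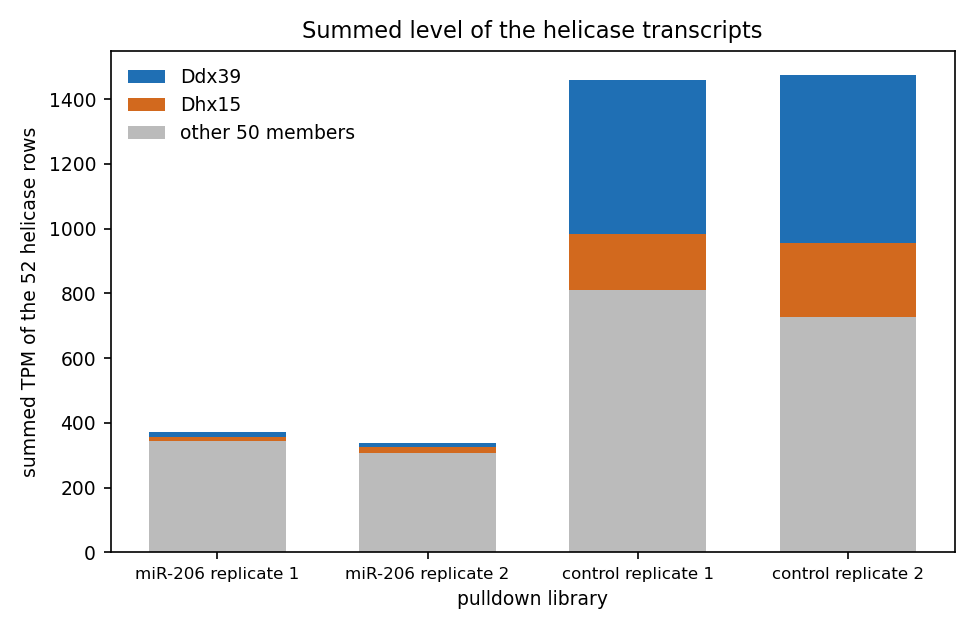
Bars give the summed TPM of the 52 helicase rows in each of the 4 pulldown libraries, split into Ddx39, Dhx15 and the other 50 rows. The miR-206 libraries reach 373 and 339 TPM and the control libraries 1458 and 1475, with Ddx39 at 32.5% and 35.2% of the control sums.

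To compare genes across libraries, counts were scaled with TMM, which sets most genes to be unchanged on balance, and given as normalised CPM (counts relative to the scaled library size). Of the 52 members, 49 had enough counts to be tested. A transcript is called depleted or enriched where the adjusted p of edgeR's quasi-likelihood test, over all 15240 genes tested, lies under 0.05. Among the 49, 8 were depleted, 4 enriched and 37 did not pass, while 6.19% of all tested genes were depleted, 15.3% enriched and 21.5% called either way. Both miR-206 libraries lay below both control libraries for 23 members and above them for 6, against 32.3% and 29.7% of all tested genes. The log2 fold (miR-206 over control) was below 0 in 36 of the 49 and in 54.4% of all genes. The median log2 fold of the tested members was -0.41, against -0.11 over all genes. Since the family was picked with this contrast known, nothing is read from these shares.

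**Figure D2:**
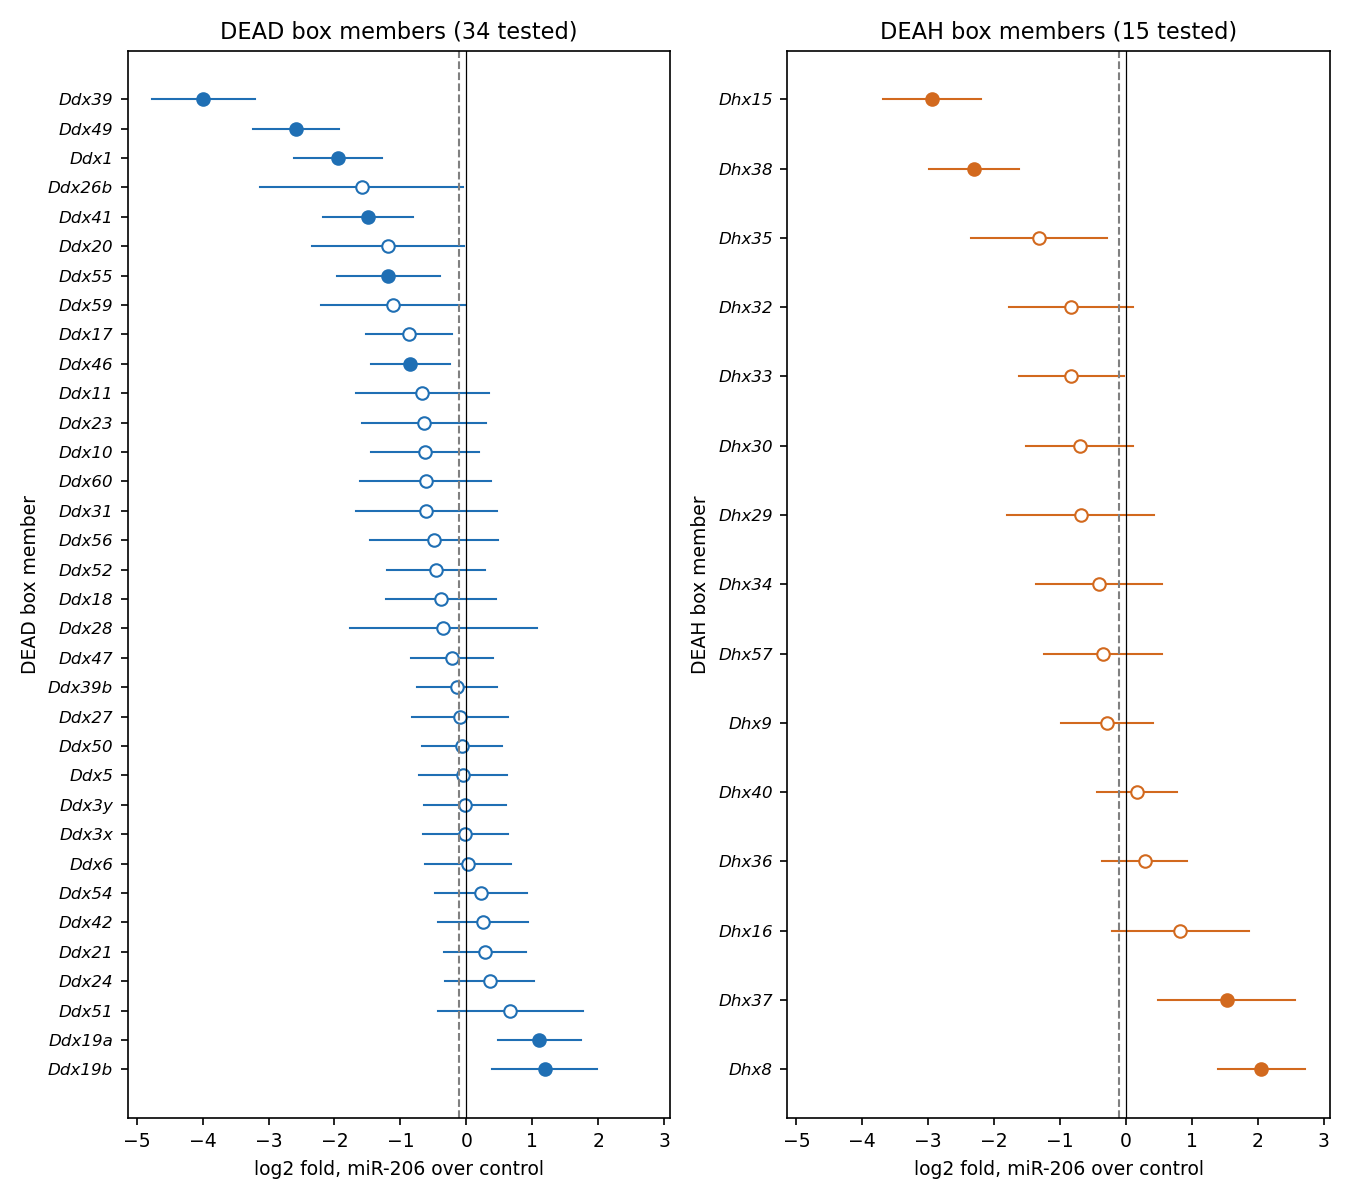
Points give the log2 fold (miR-206 over control, TMM) of 34 DEAD and 15 DEAH members with 95% intervals, filled where the adjusted p lies under 0.05. The dashed line marks the median of all tested genes (-0.11). Ddx39, at -3.99, is the lowest and Dhx8, at 2.06, the highest.

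The export helicases went in opposite directions. Ddx39 (Ddx39a in RefSeq, GRCm38 chromosome 8, 83715177 to 83726904), which helps release finished mRNA for export, had 37.0 and 32.7 CPM with miR-206 and 515 and 590 with the control. The groups are far apart and each pair of libraries is close. Its mean of 34.8 ± 3.06 CPM with miR-206 against 552 ± 53.4 with the control (SD, n = 2 each) is 15.9-fold lower, with a log2 fold (± SE, as in all that follow) of -3.99 ± 0.37 and a 95% interval of -4.76 to -3.21 (edgeR adjusted p = 3.4e-07). Its log2 fold ranked 87 of 15240 tested genes, counted from the lowest.

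Ddx39b, the close paralogue of Ddx39 in the same export complex and in spliceosome assembly (chromosome 17, 35241746 to 35253707), did not follow it. Ddx39b had 66.0 and 68.0 CPM with miR-206 and 69.0 and 78.5 with the control, a log2 fold of -0.14 (95% interval -0.74 to 0.47, edgeR adjusted p = 0.785). The 2 intervals of Ddx39 and Ddx39b do not overlap. In TPM, the scale that sets genes side by side, Ddx39 stood at 473 and 519 in the control libraries and Ddx39b at 61.3 and 65.8, whereas in the miR-206 libraries Ddx39 stood at 16.5 and 14.7 and Ddx39b at 28.7 and 32.0. Ddx39 was thus the more abundant of the pair in the control pulldown and the less abundant in the miR-206 pulldown.

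Ddx19a and Ddx19b, neighbouring copies on chromosome 8 (110974991 to 110997823 and 111003186 to 111031751) whose product remodels mRNA at the nuclear pore, were both enriched with TMM scaling. Ddx19a had 36.8 and 40.4 CPM with miR-206 and 19.0 and 16.8 with the control (log2 fold 1.11 ± 0.30, edgeR adjusted p = 0.0123), and Ddx19b 15.5 and 16.6 with miR-206 and 6.47 and 7.61 with the control (1.19 ± 0.38, edgeR adjusted p = 0.0316). The groups do not overlap for either copy. Their sequences are alike, so how kallisto divided reads between them is uncertain, and both calls end under other scalings (given with the scalings below). In TPM Ddx19a had 11.9 and 12.6 with miR-206 and 12.4 and 12.7 with the control, so on that scale the groups overlap. Ddx25, a germ cell relative of Ddx19, had at most 9 counts in a library and was not tested.

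Among the 12 spliceosome helicases 4 were depleted, 1 was enriched and 7 did not pass, where 6.19% of all tested genes were depleted and 15.3% enriched. Their median log2 fold was -0.74, against -0.11 over all genes. Dhx15 and Dhx38 had the lowest log2 folds of the 12. Dhx15 (chromosome 5, 52150203 to 52190546), which disassembles the spliced-out lariat complex and also works on ribosome precursors, had 50.4 and 60.4 CPM with miR-206 and 357 and 496 with the control. The control replicates differ more than the miR-206 replicates, but the groups are far apart. The log2 fold was -2.94 ± 0.36, or 7.69-fold lower (edgeR adjusted p = 6.2e-06, 95% interval -3.69 to -2.19).

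Dhx38 (chromosome 8, 109547999 to 109565861), which prepares the spliceosome for the second step, had 8.15 and 7.66 CPM with miR-206 and 39.9 and 38.0 with the control. Replicates lie close together in both groups, with 74 and 87 counts behind the miR-206 values and 573 and 724 behind the control values. It was 4.92-fold lower, a log2 fold of -2.30 ± 0.32 (edgeR adjusted p = 3.7e-05).

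Dhx8 (chromosome 11, 101732956 to 101767358), which releases mRNA from the spliceosome after splicing, went the other way. Dhx8 had 51.8 and 42.4 CPM with miR-206 and 12.7 and 10.0 with the control, so every miR-206 value stood above every control value. The log2 fold of 2.06 ± 0.31 (edgeR adjusted p = 8.6e-05) was the highest of the family. In TPM, however, the groups overlap, with 8.83 and 8.08 with miR-206 and 8.72 and 3.69 with the control.

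Of the remaining spliceosome members, Ddx41 and Ddx46 were depleted. Ddx41, which acts in splicing and in DNA sensing, had 10.2 and 11.6 CPM with miR-206 and 29.9 and 31.8 with the control (log2 fold -1.49 ± 0.32, edgeR adjusted p = 0.00227). Ddx46, the Prp5 relative that helps the U2 particle onto the branch site, had 32.1 and 33.6 with miR-206 and 61.8 and 56.7 with the control (-0.85 ± 0.29, edgeR adjusted p = 0.0418). Ddx46 lies just inside the threshold and Ddx17 just outside it.

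Ddx5 and Ddx17 are paralogues that act in splicing, in transcription and beside Drosha in microRNA processing. Ddx17 had 54.9 and 53.4 CPM with miR-206 and 119 and 78.8 with the control (log2 fold -0.87 ± 0.31, edgeR adjusted p = 0.053), with groups that do not overlap. Ddx5 had 220 and 188 CPM with miR-206 and 230 and 194 with the control (-0.05, 95% interval -0.72 to 0.62). In TPM Ddx5 had the highest mean of the 52 members in the miR-206 libraries, with 45.1 and 41.6 there and 96.6 and 78.6 in the control libraries. Dhx16, a Prp2 relative, split its own group: it had 49.6 and 15.3 CPM in the miR-206 libraries and 17.5 and 19.0 in the control libraries (0.83 ± 0.47, edgeR adjusted p = 0.259), so replicate 1 alone stood high. Dhx35, a helicase of the late spliceosome, had 4.18 and 3.08 CPM with miR-206 and 8.56 and 9.49 with the control (-1.32 ± 0.49, edgeR adjusted p = 0.0654).

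Ribosome assembly helicases remodel pre-ribosomal RNA in the nucleolus. Of 17 tested members listed under this role 2 were depleted, 1 enriched and 14 not called (6.19% depleted and 15.3% enriched over all genes). Their median log2 fold was -0.39, against -0.11 over all genes. Dhx32, also listed under other roles, and Dhx57 are among the 17 by that list alone, which these data do not check. Neither was called. Ddx49 (chromosome 8, 70292866 to 70302471) had 11.8 and 10.4 CPM with miR-206 and 68.6 and 64.4 with the control, 6.00-fold lower (log2 fold -2.59 ± 0.31, edgeR adjusted p = 5.35e-06). Its replicates lie close together and its groups far apart. Ddx55, of the large subunit, had 7.59 and 8.45 with miR-206 and 21.3 and 15.2 with the control (-1.18 ± 0.37, edgeR adjusted p = 0.0294).

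Dhx37, which frees the U3 particle from the small subunit precursor, was the enriched one. It had 7.93 and 11.6 CPM with miR-206 and 3.90 and 2.89 with the control (log2 fold 1.53 ± 0.49, edgeR adjusted p = 0.034), from 72 and 132 counts against 56 and 55. The nucleolar paralogues Ddx21 and Ddx50, neighbours on chromosome 10, stayed near 0. Ddx21 had 41.1 and 33.9 CPM with miR-206 and 27.5 and 34.0 with the control (log2 fold 0.28, 95% interval -0.34 to 0.91). Ddx50 had 48.4 and 39.5 with miR-206 and 49.0 and 43.2 with the control (-0.07, 95% interval -0.68 to 0.54). Ddx24, one of the more abundant members, had 91.0 and 59.2 with miR-206 and 46.9 and 70.2 with the control (0.36 ± 0.32, edgeR adjusted p = 0.474), so its groups overlap.

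The helicases listed under translation and mRNA turnover in the cytoplasm held 1 depleted member of 8 and 0 enriched (6.19% and 15.3% of all genes). Their median log2 fold was -0.15, against -0.11 over all genes. The depleted one was Ddx1 (chromosome 12, 13219307 to 13249174), a subunit of the tRNA ligase complex. Ddx1 had 37.5 and 37.5 CPM with miR-206 and 169 and 119 with the control, 3.84-fold lower (log2 fold -1.94 ± 0.32, edgeR adjusted p = 0.000166). The 2 control libraries differ more from each other than the miR-206 libraries do, yet both stand above them.

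The other 7 members of that group did not pass. Dhx29, a helper of translation initiation on structured leaders, had 3.41 and 4.58 CPM with miR-206 and 6.47 and 6.45 with the control (log2 fold -0.69 ± 0.53, edgeR adjusted p = 0.396). Dhx34, of nonsense-mediated decay, had 5.50 and 7.31 with miR-206 and 7.52 and 9.49 with the control (-0.41 ± 0.45, edgeR adjusted p = 0.572). In both, the miR-206 values lie below the control values. Ddx3x, which opens structured leaders of mRNAs for translation, had 92.9 and 94.2 CPM with miR-206 and 75.8 and 113 with the control (log2 fold -0.01, 95% interval -0.66 to 0.64), and its Y-linked copy Ddx3y had 36.3 and 38.7 with miR-206 and 32.9 and 43.3 with the control (-0.02, 95% interval -0.64 to 0.60). In both copies the miR-206 values lie between the control values. Ddx6, which silences mRNAs together with the CCR4-NOT complex downstream of Argonaute, had 79.5 and 62.0 CPM with miR-206 and 55.9 and 83.4 with the control (0.02, 95% interval -0.63 to 0.67). Dhx9, which unwinds double-stranded RNA, had 13.9 and 18.3 with miR-206 and 18.6 and 20.8 with the control (-0.29 ± 0.33, edgeR adjusted p = 0.586), and Dhx36, which resolves G-quadruplexes, 30.6 and 24.7 with miR-206 and 20.5 and 24.9 with the control (0.28 ± 0.31, edgeR adjusted p = 0.563). Of the 6 members also known for antiviral defence or nucleic acid sensing, Ddx1 and Ddx41 were depleted (6.19% over all genes). Ddx60, Dhx9, Dhx36 and Ddx21 did not pass. Ddx1 and Ddx41 are already counted in the groups above.

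The mitochondrial helicases Ddx28 and Dhx30, which act in assembly of the mitochondrial ribosome, did not pass, with log2 folds of -0.35 and -0.70. Ddx20, a component of the SMN complex, had 4.29 and 2.55 CPM with miR-206 and 5.64 and 9.91 with the control (-1.19 ± 0.55, edgeR adjusted p = 0.138). Ddx59 had 3.63 and 3.43 with miR-206 and 8.91 and 6.45 with the control (-1.12 ± 0.52, edgeR adjusted p = 0.143). Ddx26b, a row whose RefSeq symbol is now Ints6l, had 1.54 and 1.94 with miR-206 and 8.14 and 2.41 with the control, where replicate 1 alone was high. The germ cell helicase Ddx4 had 3 to 9 counts in each library and Ddx43 1 to 13, so neither was tested.

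**Figure D3:**
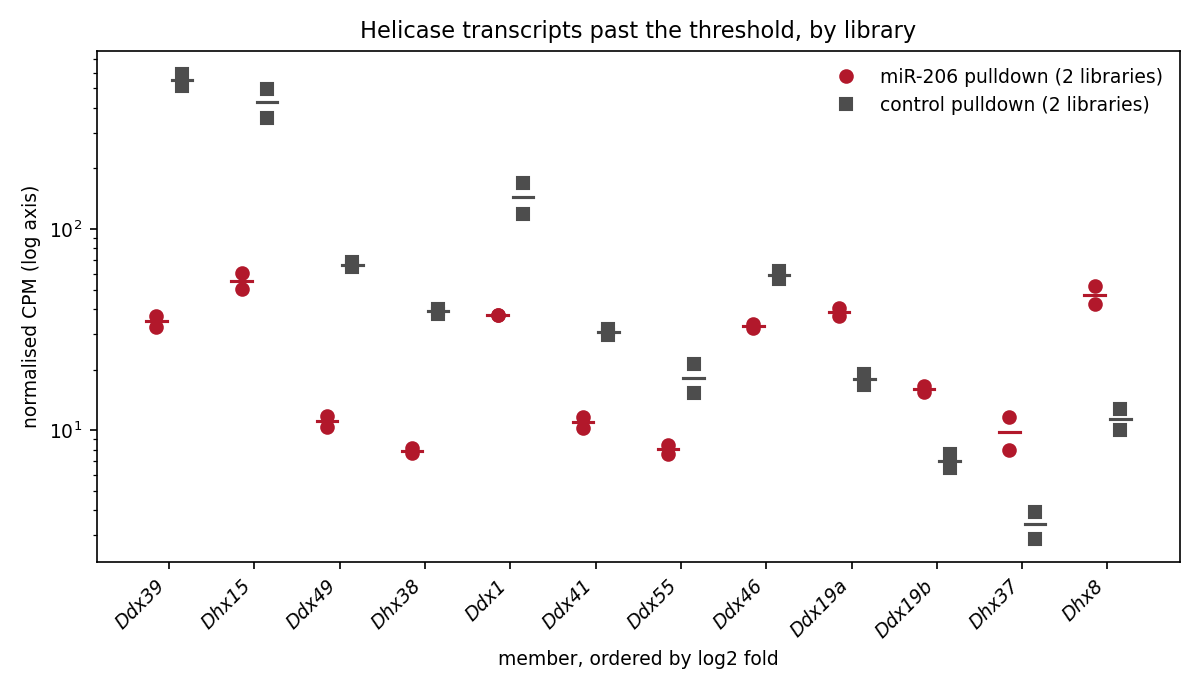
Points give the normalised CPM (log axis) of the 12 called members in the 2 miR-206 libraries (circles) and the 2 control libraries (squares), with bars at the group means. In each of the 12 the groups are apart, from 37.0 and 32.7 against 515 and 590 for Ddx39 to 51.8 and 42.4 against 12.7 and 10.0 for Dhx8.

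The DEAD and DEAH families had like medians. Of 34 tested DEAD members 6 were depleted and 2 enriched, and of 15 DEAH members 2 were depleted and 2 enriched. Over all tested genes 6.19% were depleted and 15.3% enriched. The median log2 fold was -0.42 for DEAD and -0.41 for DEAH members, a difference of -0.02, with quartiles at -0.86 and -0.02 and at -0.83 and 0.23. Each family held both strongly depleted members (Ddx39 and Ddx49, Dhx15 and Dhx38) and enriched ones. The difference of the medians was 0.28 without control replicate 1, 0.28 without miR-206 replicate 2 and 0.11 with a replicate block. Its sign is therefore not settled, and no test was made of it. Without miR-206 replicate 2, 37 DEAD members were tested and not 34, so the set of members changed too.

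The calls were set beside those of other scalings. Total counts and TPM without centring move all genes towards lower values in the miR-206 libraries, which by construction ends enriched calls and adds depleted ones. Under 6 scalings (TMM, RLE, upper quartile, total counts, and limma on log2(TPM + 1) with and without median centring) 6 members were depleted every time: Ddx39, Dhx15, Ddx49, Dhx38, Ddx1 and Ddx41. Their log2 folds reached from -5.11 to -3.96 for Ddx39, from -4.03 to -2.92 for Dhx15, from -3.72 to -2.34 for Ddx49, from -3.43 to -1.82 for Dhx38, from -3.09 to -1.92 for Ddx1 and from -2.60 to -1.43 for Ddx41. Of all 15240 tested genes 3.92% were depleted and 6.27% enriched under all 6. Both limma fits tested only 13653 genes, and 48 of the 49 members, so the remaining genes could not be called under all 6. These shares are therefore low for a comparison with the members. Of the 4 enriched members 0 passed under all 6. Total counts gave 41 depleted and 1 enriched member (45.3% and 7.02% of all genes), limma on TPM 28 and 0 (41.6% and 8.04%) and limma on centred TPM 6 and 0 (6.2% and 12.6%). The upper quartile gave 10 and 1 (12.9% and 12.3%), RLE 8 and 4 (6.06% and 15.6%) and DESeq2 9 and 4 (5.72% and 16%). Dhx8 lost its call only with TPM (edgeR gave an adjusted p of at most 0.0368 in the count scalings, limma 0.326 with TPM and 0.0717 after centring), while Ddx19a, Ddx19b and Dhx37 also lost theirs with the upper quartile (0.0545, 0.0908 and 0.103) and with total counts (0.970, 0.870 and 0.556). The log2 fold of Ddx19a was -0.02 with total counts and -0.03 with TPM. The median of all genes moved with these scalings, from -0.08 with centred TPM to -1.22 with total counts, and the median of the members lay between 0.17 and 0.30 below it in each.

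**Figure D4:**
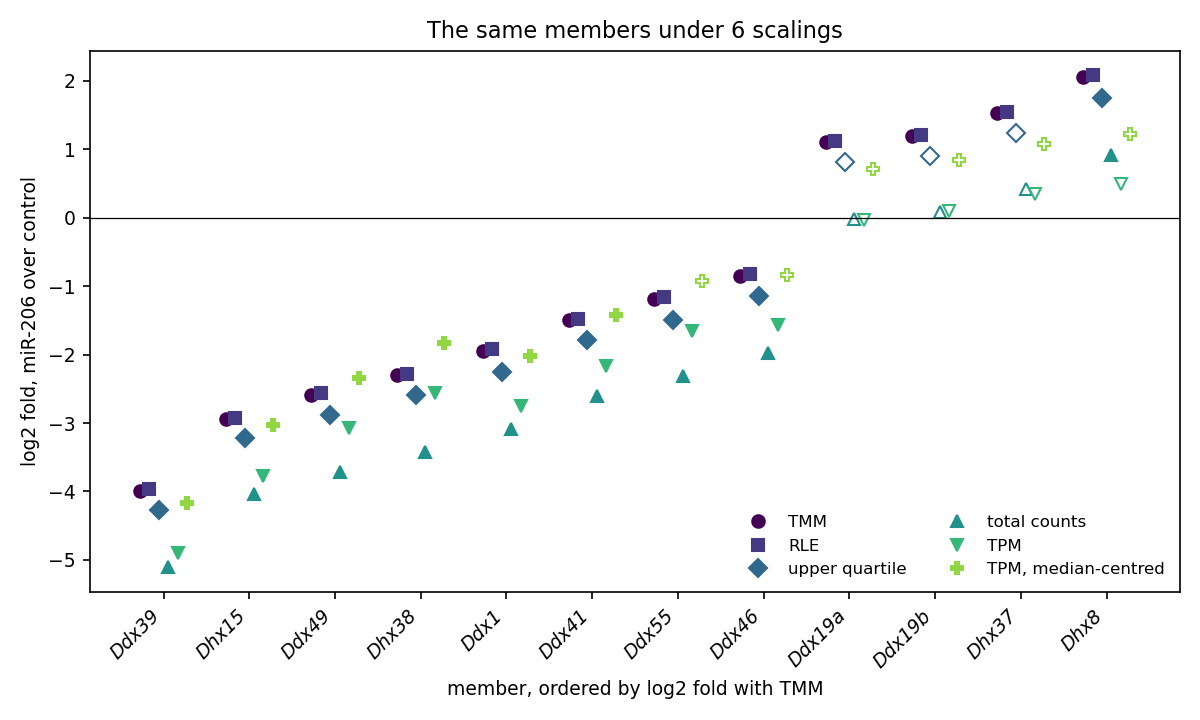
Points give the log2 fold (miR-206 over control) of the 12 called members under 6 scalings, filled where the adjusted p lies under 0.05. Ddx39, Dhx15, Ddx49, Dhx38, Ddx1 and Ddx41 are filled under each, while Ddx19a, Ddx19b and Dhx37 are filled with TMM and RLE alone.

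Leaving out single libraries ended several of the smaller calls. An arm left with 1 library is assumed to vary like the other arm, whose pair then gives the spread. A lost call therefore need not mean a smaller change. Without miR-206 replicate 1 and without miR-206 replicate 2 the log2 folds were -0.86 and -0.88 for Ddx46, -1.16 and -1.26 for Ddx55, and 1.13 and 1.04 for Ddx19a. The same fits gave 1.20 and 1.15 for Ddx19b and 1.73 and 1.23 for Dhx37. Against all 4 libraries some folds were smaller where the call was lost. Without control replicate 1 Ddx46 had -0.77 (from -0.85) and Ddx55 -0.90 (from -1.18). Dhx37 had 1.37 without control replicate 2 (from 1.53). Without miR-206 replicate 1, Ddx46 (edgeR adjusted p = 0.241), Ddx55 (0.223), Ddx19a (0.0799), Ddx19b (0.251) and Dhx37 (0.152) did not pass. Without miR-206 replicate 2 the same 5 did not pass (0.195, 0.151, 0.116, 0.251 and 0.410). Ddx46 and Ddx55 also failed without control replicate 1 (0.0503 and 0.0857), and Dhx37 without control replicate 2 (0.061). Ddx39, Dhx15, Ddx49, Dhx38, Ddx1, Ddx41 and Dhx8 passed in all 4 such fits, with adjusted p of at most 0.0302.

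The ratio of counts to TPM gives a further readout, the length of transcript behind the counts. A row that stands for 1 transcript keeps the same ratio, relative to the library's median gene, in every library. In 26 of the 49 tested members it varied by at most 1.1 times, Ddx39 (0.66 to 0.72 of the median gene), Dhx15 (1.22 to 1.30) and Dhx38 (1.74 to 1.85) among them, and in 9 by more than 1.5 times. Shares over all genes were not worked out for this ratio, so nothing particular to the helicases is read from it. Dhx8 had 1.74 and 1.70 in the miR-206 libraries but 0.92 and 1.60 in the control libraries, so in control replicate 1 its counts lay on shorter transcripts, and there its TPM of 8.72 is high. Dhx35 had 0.47 and 0.52 with miR-206 and 0.89 and 0.98 with the control, groups that do not overlap. Ddx49 had 0.72 and 0.44 with miR-206 and 0.64 and 0.73 with the control. For these rows the fold in counts and the fold in TPM are different quantities.

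Genes that share ground with members were looked up, since reads from an overlap cannot be assigned without strand, and the labels do not say whether strand was kept. All 52 members matched the RefSeq table, and 10 overlap a protein-coding gene in GRCm38. Adgre5, which overlaps Ddx39 over 3660 bases, had 86 and 123 counts with miR-206 and 97 and 35 with the control, against 336 and 371, and 7394 and 11250, for Ddx39. Homer3, which overlaps Ddx49 on the opposite strand, had a log2 fold of 0.45 (edgeR adjusted p = 0.299). Aars, opposite Ddx19b, had -0.22 (0.642). None of these 3 neighbours passed the test.

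Helicases under other names were looked up too. Of 17 tested, 3 were enriched, 3 depleted and 11 not called (15.3% enriched and 6.19% depleted over all genes), with a median log2 fold of -0.58 against -0.11 over all genes. Ythdc2, a helicase that reads methylated RNA (2.26 ± 0.35), Ascc3, of stalled ribosome rescue (1.23 ± 0.32), and Aqr, of the spliceosome (0.95 ± 0.30), rose, while Rtel1, a DNA helicase (-1.56 ± 0.44), Eif4a2, a DEAD box translation factor (-1.02 ± 0.32), and Upf1, of nonsense-mediated decay (-1.002 ± 0.29), fell (edgeR adjusted p of at most 0.0303). Of the 13 alternatives, the call was lost in 6 for Aqr, 4 for Ascc3, 3 each for Eif4a2 and Rtel1, 2 for Upf1 and 1 for Ythdc2. Eif4a1, the main helicase of translation initiation, had 197 and 193 CPM with miR-206 and 199 and 228 with the control and did not pass (-0.13 ± 0.31).

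Partners that switch the DEAH enzymes on held 4 enriched and 2 depleted genes of 16 (15.3% and 6.19% of all genes), with a median log2 fold of -0.26 against -0.11 over all genes. Gpkow, a G-patch partner of Dhx16, had 149 and 136 CPM with miR-206 and 14.8 and 24.9 with the control (2.84 ± 0.34, edgeR adjusted p = 5.4e-06). Pinx1, a G-patch partner of Dhx15 (1.48 ± 0.37), Gpatch8 (1.43 ± 0.29) and Cherp (1.43 ± 0.31) rose too. Zgpat, also a partner of Dhx15 (-2.02 ± 0.46), and Cmtr1, the cap methyltransferase that binds Dhx15 (-1.04 ± 0.34), fell. The call was lost in 3 of the 13 alternatives for Pinx1, Gpatch8 and Cmtr1, in 2 for Cherp, in 1 for Zgpat and in 0 for Gpkow.

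Partners of the DEAD enzymes held 3 enriched and 2 depleted genes of 25 (15.3% and 6.19% of all genes), with a median log2 fold of -0.14 against -0.11 over all genes. Pdcd4, an inhibitor of the Eif4a helicases, had 2659 and 1823 CPM with miR-206 and 155 and 135 with the control (3.95 ± 0.42, edgeR adjusted p = 1.6e-06). Patl1, a decapping factor that binds Ddx6 (1.74 ± 0.34), and Eif4g2, a translation factor (1.12 ± 0.36), rose, with the call lost in 2 of the 13 alternatives for Patl1 and in 6 for Eif4g2. Thoc1, of the THO complex that loads the Ddx39 type export helicases, had 16.6 and 19.3 CPM with miR-206 and 150 and 171 with the control (-3.16 ± 0.32, edgeR adjusted p = 1.04e-06). Edc3, a decapping factor that binds Ddx6, had 18.3 and 15.8 with miR-206 and 57.2 and 91.3 with the control (-2.13 ± 0.32, edgeR adjusted p = 7.86e-05).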

How the data were processed

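RNA captured on 2 biotin-tagged mimics was sequenced from 4 libraries, made with SMARTer and Ovation kits and with spike-ins not used for scaling, per the labels' protocols. The authors used FastQC and kallisto with mm10, per the submitters' processing notes; the notes leave out versions, settings and strandedness. The deposited table gives estimated counts per gene, not normalised, and TPM by the authors; the deposited TPM columns sum to between 629789 and 743940 per library. The authors' table of fold changes was not used.

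Counts were rounded, filtered with filterByExpr, scaled with TMM and tested with edgeR 4.0.16 (glmQLFit and glmQLFTest, robust; R 4.3.3) in all 4 libraries without a block, with Benjamini-Hochberg adjustment over 15240 genes. Standard errors are the log2 fold over the square root of F. Intervals cover the spread between libraries, not the choice of scaling. The floor of 3 counts equals 0.330 and 0.264 CPM in the miR-206 libraries and 0.209 and 0.157 in the control libraries. Alternatives were DESeq2 1.42.0, other scalings and filters, limma 3.58.1 on log2(TPM + 1) for genes with a TPM of at least 1 in 2 libraries, a replicate block, and leaving out each library. The fitting steps were tested on simulated data with 50 changed genes at each fold. They recovered 14% of 2-fold, 66% of 4-fold, 86% of 8-fold and 98% of 16-fold changes, with 8 false calls. The simulation raised and lowered equal numbers of genes, 200 in all, in libraries that differed only in depth. The real libraries had 2327 enriched and 944 depleted genes. Their TMM factors were 0.62 and 0.74 with miR-206 and 1.62 and 1.34 with the control. The simulated shares may therefore not hold for them. Even in that simpler setting most 2-fold changes were missed, so a member that did not pass may still have changed.

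The members, roles and gene lists were chosen with earlier results of these data known. Members named with values are those past the threshold, the 8 with the highest mean TPM, both genes of 6 close pairs, and the 4 largest log2 folds that did not pass; Ddx6, Ddx28, Dhx29, Dhx30, Dhx34 and Ddx60 were added after their values were seen. Of the other gene lists, those past the threshold are named, with Eif4a1, Pdgfra, Ly6a, Dcn, Col1a1, Col3a1, Cspg4, Mcam and Kcnj8 added likewise. Gene positions are RefSeq's for GRCm38.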

Additional observations from a re-analysis of the deposited data

How the results depend on the processing

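The number of calls over all genes moved with the scaling. Against 2327 enriched and 944 depleted genes with TMM, limma on log2(TPM + 1) gave 1098 and 5681, total counts 1070 and 6909, and the upper quartile 1870 and 1962. Leaving out 1 library gave 1655 to 2576 enriched and 358 to 1535 depleted genes. Among the members, 4 enriched and 8 depleted with TMM, limma on TPM gave 0 and 28, limma on centred TPM 0 and 6, total counts 1 and 41, and the upper quartile 1 and 10. Leaving out 1 library gave 1 to 4 enriched and 6 to 10 depleted members. The median of DEAD minus that of DEAH members was -0.02 and lay between 0.0272 and 0.28 with a library left out. The genes tested changed with the library, from 15240 to between 15745 and 16772. Without control replicate 2 or either miR-206 replicate, 37 DEAD members were tested and not 34. These ranges therefore mix a changed set of genes with the missing library. Ddx39, Dhx15, Ddx49, Dhx38, Ddx1 and Ddx41 passed the threshold in all 13 alternatives.

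Among the members named by the rule, the sign of the log2 fold turned as follows. With TPM it turned for Ddx19a (-0.0275), Ddx21 (-0.57), Ddx24 (-0.56), Dhx16 (-0.17) and Dhx36 (-0.53), and with total counts for the same members (-0.0150, -0.83, -0.76, -0.35 and -0.84). Both scalings move all genes down, and with centred TPM these 5 kept their sign (0.71, 0.17, 0.18, 0.56 and 0.21). The upper quartile turned Ddx21 (-0.0015) and Dhx36 (-0.0028). DESeq2 and RLE turned Ddx3x (0.0096 in each) and Ddx3y (0.00032 and 0.00029). With 1 library left out the log2 fold ran from -0.0228 to 0.72 for Ddx24, from -0.30 to 1.45 for Dhx16, from -0.22 to 0.10 for Ddx5, from -0.27 to 0.0748 for Ddx50, from -0.25 to 0.34 for Ddx3x, from -0.19 to 0.23 for Ddx3y and from -0.21 to 5.3e-05 for Ddx39b. The turned sign came without miR-206 replicate 1 for Ddx24 and Dhx16, without miR-206 replicate 2 or control replicate 1 for Ddx5 and Ddx50, and without control replicate 2 for Ddx3x, Ddx3y and Ddx39b. Dhx16 passed as enriched without miR-206 replicate 2 (1.45, edgeR adjusted p = 0.0072). Of the members added later, Ddx6 turned with TPM (-0.82), centred TPM (-0.09), total counts (-1.09), the upper quartile (-0.26), no count filter (-0.01), and on leaving out either control replicate 1 (-0.22) or miR-206 replicate 1 (-0.21). Ddx28 turned with centred TPM (0.0080) and without control replicate 2 (0.51), and Ddx60 with centred TPM (0.04) and without control replicate 1 (0.14). Apart from that shift of all genes, the cause was not tested.

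Same-numbered libraries did not deviate together (r = -0.08 across genes, which are not independent replicates). With 2 libraries per mimic this cannot show whether same-numbered libraries share mice or cultures, and the labels do not say. With the replicate block edgeR called 2576 genes enriched and 1129 depleted, and 4 and 8 members, and Ddx3x turned to 0.0149. Depth limits the members with few counts, and 2 libraries per mimic limit every value.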
